A study of Mus musculus with 2 samples.

Results

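The NMDA receptor subunit genes of the mouse were described in postnatal hippocampus: Grin1, Grin2a, Grin2b, Grin2c, Grin2d, Grin3a and Grin3b, 7 of the 55536 annotated genes in the gene table. They are the whole family by symbol, a rule that uses no measured value, and all 7 were found, each under 1 gene identifier and with 39 annotated transcripts between them. Total RNA had been sequenced from tissue labelled as a layer of hippocampus, taken at 10 days of age from B6CASTF1/J mice. These are F1 animals of a cross between the C57BL/6J and CAST/EiJ strains, and reads of the parental alleles were not separated here. There was 1 untreated group with 2 libraries, replicate 1 and replicate 2, each labelled male, each made from 300 ng of RNA and each with a label that names 3 males under its own running numbers. Whether a library is a pool of those animals is not spelled out. With 1 group, no conditions could be compared, and every test below compares the 2 libraries with each other.

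Most NMDA receptors are glutamate-gated cation channels that open only when a co-agonist, glycine or D-serine, is also bound. In many of them magnesium blocks the pore until depolarisation lifts the block. Each receptor is built around the obligatory GluN1 subunit (Grin1), combined with GluN2 subunits (Grin2a to Grin2d), which bind glutamate and set the kinetics, and sometimes with GluN3 subunits (Grin3a, Grin3b), which bind glycine and lower calcium permeability. In the forebrain GluN2B is prominent early in life and GluN2A is known to rise during postnatal maturation. GluN1 is diversified by splicing at an amino-terminal cassette called N1 and at the carboxy terminus, where cassette C1 can be included and the protein ends in either C2 or C2'.

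The Grin1 splice choices can be read from the GENCODE M21 annotation of the mm10 genome, the build of the deposited tables. Grin1 lies on the minus strand at chr2:25291181-25319187, and its 8 protein-coding transcripts are exactly the 8 combinations of N1 in or out, C1 in or out, and end C2 or C2'. They differ also in the annotated first exon. It has 559 bases in Grin1-205, 492 in Grin1-201, Grin1-202 and Grin1-206, and 467 in every form with N1. Reads at the first exon therefore also bear on the estimated shares of the forms. The N1 exon (chr2:25311343-25311405) has 63 bases, 21 codons, and the C1 exon (chr2:25294438-25294548) has 111 bases, 37 codons. The final exon has alternative acceptor sites 356 bases apart, which give 38 codons for C2 (chr2:25292371-25292484) or 22 codons for C2' (chr2:25292063-25292128). The cassette exons are shown whole, each 5′ to 3′ on the coding strand, because the shares of forms that include them are given below. N1 is known to encode a stretch rich in basic residues that alters proton and polyamine sensitivity, and C1 carries an endoplasmic reticulum retention signal and phosphorylation sites.
N1 exon: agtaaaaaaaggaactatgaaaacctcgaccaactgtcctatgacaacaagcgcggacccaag
C1 exon: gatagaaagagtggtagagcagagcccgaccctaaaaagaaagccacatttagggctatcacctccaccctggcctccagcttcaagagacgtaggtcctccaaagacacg
The carboxy-terminal choice is seen at the splice junctions, of which 4 are annotated. In the next lines the capitals mark the first 15 bases of the downstream exon, C2 or C2', after 15 bases of the upstream exon.
C1 to C2: tcctccaaagacacgAGCACCGGGGGTGGA
C1 to C2': tcctccaaagacacgCAGTACCATCCCACT
exon before C1 to C2: aggaagaacctgcagAGCACCGGGGGTGGA
exon before C1 to C2': aggaagaacctgcagCAGTACCATCCCACT
The coding ends differ as well, shown by their last 30 bases with the stop codon in capitals. C2' is known to end in a motif that binds PDZ domains, which C2 lacks.
C2 end: cagctgtgttcccgtcatagggagagcTGA
C2' end: tcagatccctcggtcagcaccgtggtgTGA

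The files held 32035705 and 29747193 expected counts for replicates 1 and 2. Levels are given as TPM, a transcript abundance per length with a common total for every library, so that genes can be set beside each other. They come from a table derived from transcriptome alignments, called alignment-based, and from a second table derived from the FASTQ files, called FASTQ-based. The label hippocampus was checked with markers: 8 of 8 glutamatergic neuron genes, 8 of 8 CA field genes and 6 of 6 dentate granule cell genes had a TPM of at least 1 in both libraries, against 1 of 6 cerebellar and 0 of 5 cholinergic and motor neuron genes. The same level was reached by 5 of 6 thalamus genes, which summed to 59.99 and 58.3 TPM, and by 3 of 8 choroid plexus genes. One library went against its label. Xist, the RNA of the inactive X chromosome, had 25 and 30841 counts and the Y-linked gene Ddx3y 2164 and 0, so replicate 2 is the library labelled male, replicate 2, throughout.

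Grin1, the obligatory subunit gene (ENSMUSG00000026959.13), stood at 156 and 155 TPM in replicates 1 and 2, from 12785 and 11958 expected counts. Both libraries gave nearly the same level, 155.6 ± 0.785 TPM (mean ± SD, n = 2, as for all later means). It ranked 492nd among the 13075 protein-coding genes with a TPM of at least 1 in both libraries. By the FASTQ-based table it was the highest of the 7 genes, at 225 and 222 TPM.

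Among the GluN2 genes, which supply the glutamate-binding subunits, Grin2b led. Grin2b (ENSMUSG00000030209.14, chr6:135713233-136173511, minus strand) stood at 168 and 163 TPM from 48801 and 45996 counts, and ranked 457th among the detected protein-coding genes. Grin2a (ENSMUSG00000059003.12, chr16:9567898-9995560, minus strand), the subunit of maturing forebrain synapses, stood at 74.9 and 78.6 TPM from 15799.6 and 16026.5 counts, rank 1261. Grin2b exceeded Grin2a 2.24-fold in replicate 1 and 2.07-fold in replicate 2, so the library values of these genes did not overlap.

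Grin2c and Grin2d were present at far lower levels. Grin2c (ENSMUSG00000020734.13, chr11:115249169-115267243, minus strand), best known from cerebellar granule cells and also from astrocytes, stood at 12.8 and 14.04 TPM from 1235 and 1247 counts. Grin2d (ENSMUSG00000002771.12, chr7:45831883-45878378, minus strand), best known from the early brainstem and diencephalon and from interneurons, stood at 14.4 and 12.9 TPM from 1570 and 1290 counts. These genes could not be ordered: Grin2d was the higher in replicate 1 and Grin2c in replicate 2. Their ranks among detected protein-coding genes were 7226 for Grin2c and 7150 for Grin2d, near the middle. In these bulk tissue libraries, expression in few cells and little RNA per cell cannot be told apart.

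The GluN3 genes were split. Grin3a (ENSMUSG00000039579.15, chr4:49661611-49845744, minus strand), the subunit of juvenile receptors with low calcium permeability, stood at 36.6 and 37.1 TPM from 5369 and 5115 counts, rank 3099. That is 2.54-fold above Grin2d in replicate 1 and 2.87-fold in replicate 2. Grin3b (ENSMUSG00000035745.9, chr10:79970715-79977190, plus strand), a gene best known from motor neurons, had 4 and 7 counts, or 0.06 and 0.17 TPM. The exact Poisson 95% intervals of its counts, 1.09 to 10.2 and 2.81 to 14.4, overlap and cover counting error only. It was the single member of the family under a TPM of 1.

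**Figure D1:**
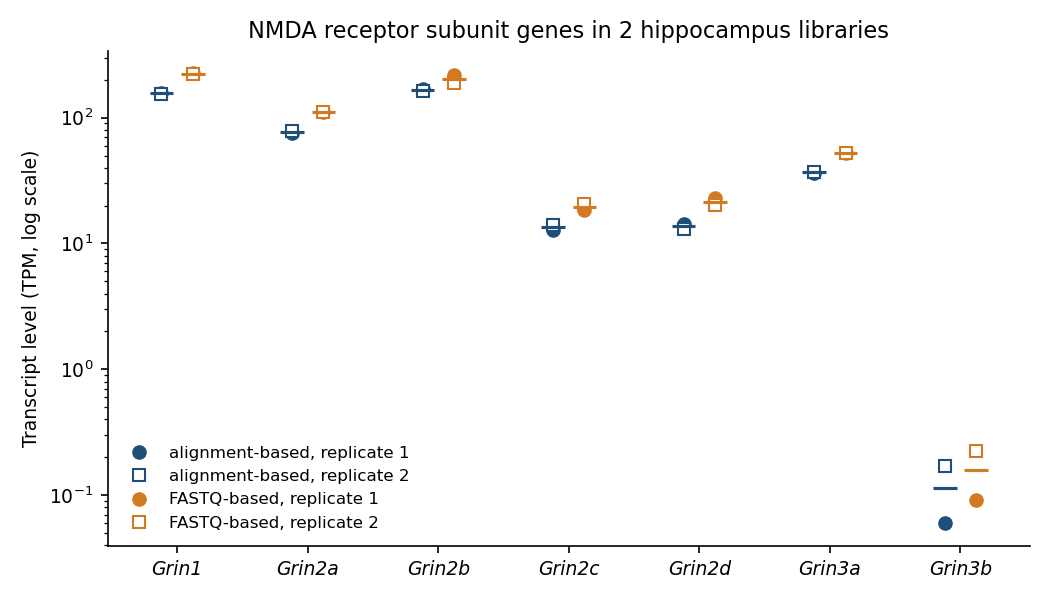
TPM (log axis) of the 7 subunit genes in each library, filled circles for replicate 1 and open squares for replicate 2, by the alignment-based and the FASTQ-based table, with short lines for the means of both libraries. Grin1 and Grin2b lead at 155 to 168 TPM by alignment, Grin2c and Grin2d overlap at 12.8 to 14.4, and Grin3b lies at 0.06 and 0.17.

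In order of alignment-based level the genes ran Grin2b, Grin1, Grin2a, Grin3a, then Grin2d with Grin2c, then Grin3b. The library values of neighbours did not overlap except for Grin2d and Grin2c. The first place depended on the table. Grin2b was 1.06-fold above Grin1 by alignment, while Grin1 was 1.10-fold above Grin2b by the FASTQ-based table, and in neither table did the library values of the pair overlap. When only transcripts with at least 90% of a gene's longest coding sequence were summed, a choice made after the values had been seen, Grin1 was 1.31-fold above Grin2b by alignment and 1.29-fold by FASTQ. The FASTQ-based levels of the detected members were 1.23- to 1.58-fold the alignment-based ones, with Grin2b the lowest of them, beside a median of 1.53 over 13068 protein-coding genes and an interquartile range of 1.42 to 1.73.

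As shares of the summed GluN2 TPM, Grin2b held 62.2% and 60.7% in replicates 1 and 2 and Grin2a 27.7% and 29.3%. Grin2c held 4.75% and 5.23%, and Grin2d 5.34% and 4.82%. Grin2b was thus the majority GluN2 transcript in both libraries, at 61.4% ± 1.08 against 28.5% ± 1.10 for Grin2a. With full coding transcripts alone the Grin2b share was 55.2% ± 0.863 by alignment and 55.0% ± 1.27 by FASTQ, so it stayed the majority and the tables differed by less than the spread between the libraries. In expected counts, which are not per length and favour the longer Grin2b transcript, Grin2b held 72.4% of 67406 GluN2 counts in replicate 1 (exact binomial 95% interval 72.1 to 72.7) and 71.2% of 64559 in replicate 2 (70.9 to 71.6).

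**Figure D2:**
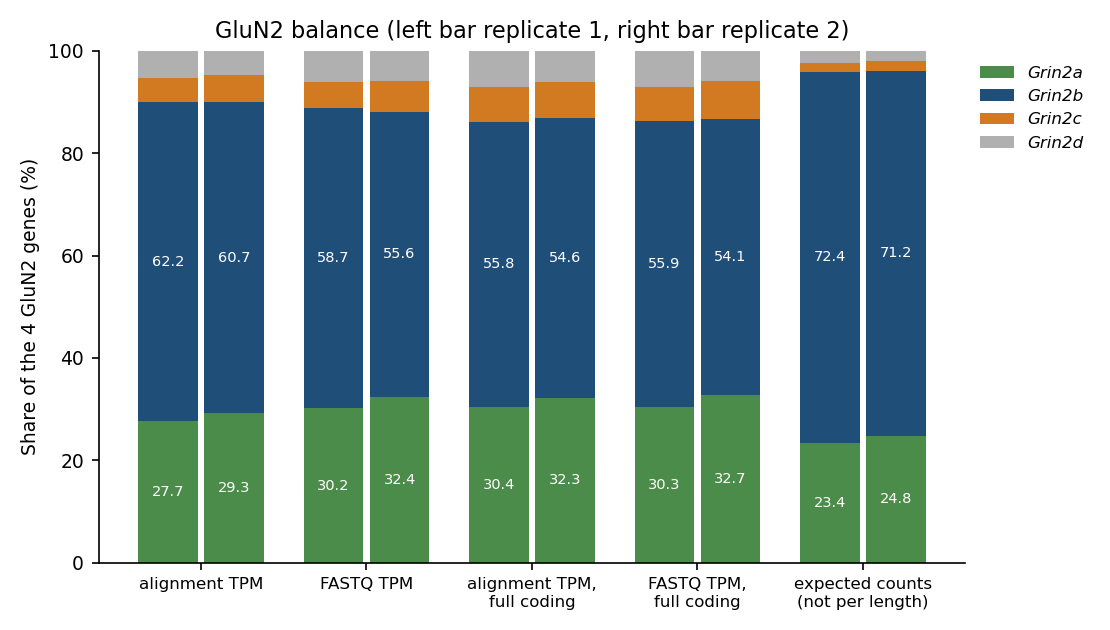
Share of each GluN2 gene in the sum over the 4 genes (percent, stacked bars from 0 to 100), with replicate 1 left and replicate 2 right in each pair, for 5 ways of measuring. Grin2b holds more than any other gene in all 10 bars, from 54.1% to 72.4%.

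The GluN2 sum exceeded Grin1 in both libraries. It was 270.1 TPM in replicate 1 and 268 in replicate 2, a ratio to Grin1 of 1.73 in each, or a log2 ratio of 0.79. With full coding transcripts the ratio was 1.37 and 1.40 by alignment and 1.38 and 1.44 by FASTQ. The GluN3 sum was below Grin1 by a log2 ratio of -2.09 in replicate 1 and -2.06 in replicate 2, nearly all of it Grin3a. TPM of RNA does not give subunit numbers in receptors. Over the 7 genes the sum was 462.8 and 460.6 TPM, against 527.6 and 536.8 for the 4 AMPA receptor genes and 207 and 202 for the 5 kainate receptor genes. NMDA receptor genes thus held 38.7% and 38.4% of the RNA of these ionotropic glutamate receptor families by TPM, and 37.9% and 36.6% by FASTQ.

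The Grin2b and Grin2a transcripts differ greatly in length, and their shares differ with the measure. The longest Grin2b transcript, Grin2b-201, has 24060 bases, of which 18868 follow the coding sequence, and it held 50.9% and 53.4% of Grin2b TPM but 91.1% and 91.2% of its counts. Grin2b-202 has the same 1482 codons and 2275 bases after them, and held 12.3% and 12.6% of TPM. Most of the remaining TPM sat on 3 short transcripts of 601 to 703 bases, Grin2b-203, Grin2b-204 and Grin2b-206, which carry at most 109 coding bases and lie in the 5′ part of the gene. Together they held 30.6% and 26.4% of Grin2b TPM by alignment and 27.0% and 15.4% by FASTQ, yet 1.20% and 1.11% of the alignment-based counts. The tables did not place those reads on the same transcript. Grin2b-206 held 22.8% and 4.34% of TPM by alignment and close to 0 by FASTQ. Grin2b-203 was at 0 by alignment and at 16.7% and 13.4% by FASTQ, and Grin2b-204 was at 7.79% and 22.1% against 10.3% and 2.01%. No split among these short transcripts held in both tables.

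Grin2a was carried mainly by Grin2a-206, of 14634 bases with 9932 after the coding sequence, at 56.1% and 58.2% of TPM and 83.7% and 83.6% of counts. Grin2a-202, with the same 1464 codons and 89 bases after them, held 15.8% and 21.3% of TPM, and 23.4% and 28.4% by FASTQ. The transcript Grin2a-204, annotated as a retained intron in a single exon of 3906 bases, held 12.2% and 13.0% of TPM. All 3 lay above 10% in both tables, in both libraries.

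**Figure D3:**
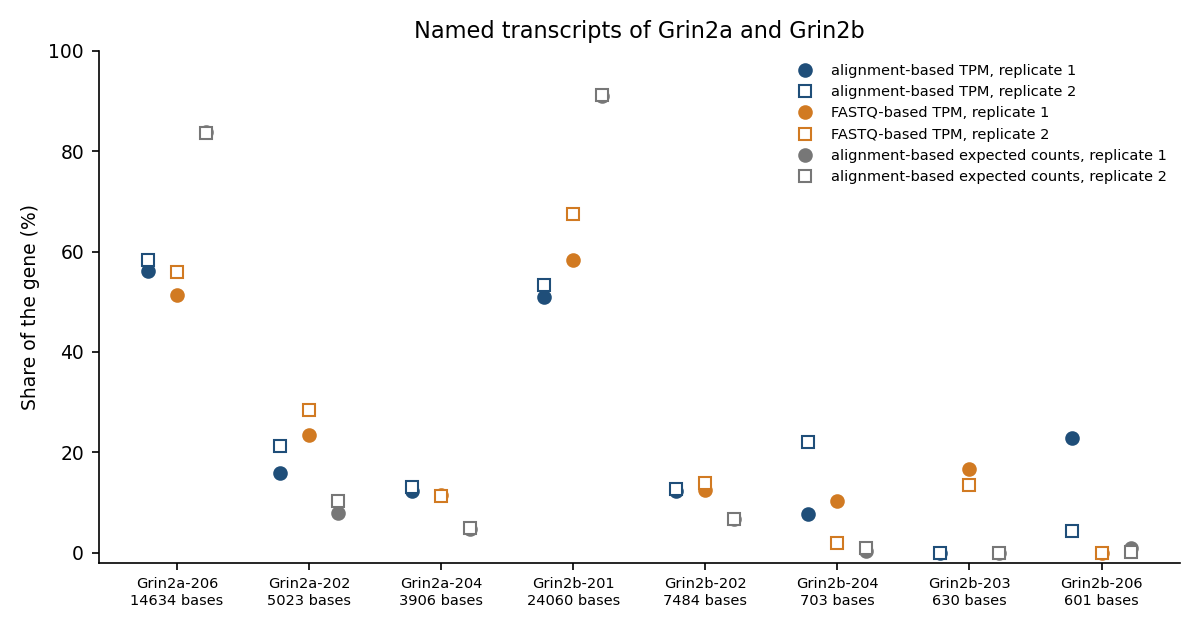
Share of the gene (percent) on each named transcript of Grin2a and Grin2b, ordered by length within each gene, as alignment-based TPM, FASTQ-based TPM and alignment-based expected counts in replicate 1 (filled circles) and replicate 2 (open squares). Grin2b-201 rises from 50.9% of TPM to 91.1% of counts in replicate 1, and the short Grin2b transcripts change places between the tables.

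The lower GluN2 genes had simpler transcript sets. Grin2c-201 and Grin2c-202 share the 1239 codons and differ before them, with 157 and 773 bases ahead of the start. Grin2c-201 held 57.6% and 62.7% of Grin2c TPM by alignment, and 46.3% and 64.3% by FASTQ, so which of the pair led in replicate 1 depended on the table. Grin2d-201 held 68.9% and 73.4% of Grin2d TPM and Grin2d-203, with the same 1323 codons, 25.3% and 18.8%. The short Grin2d-202, with 191 coding bases, held 5.83% and 7.81% by alignment and 14.8% and 15.5% by FASTQ. For Grin3b, with counts as low as given above, Grin3b-201 held 3.70 and 4.83 counts, Grin3b-202 held 0 and 2.17, and Grin3b-203 held 0.30 and 0, which allows no statement on form.

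Grin1 was mostly transcribed without N1, with C1, and with the C2 end. The share of coding Grin1 TPM on forms that include N1 was 8.96% in replicate 1 and 7.60% in replicate 2, and 9.99% and 8.60% by FASTQ. Including C1 were 61.3% and 59.6% by alignment and 54.4% and 53.8% by FASTQ. The C2' end was on 34.4% and 32.8% by alignment and 39.0% and 37.1% by FASTQ. The tables gave the same side of an even split for every choice, and for C1 and C2' they differed by more than the libraries did. Over their whole length, the N1 forms were assigned 1086 and 874 expected counts, and the C2' forms 3904 and 3481. Reads over the N1 exon or the C2' stretch alone were not counted.

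The C1 cassette and the C2 end occurred together. C1 was on 75.4% and 72.6% of the C2 forms by alignment, and on 34.6% and 32.9% of the C2' forms. The FASTQ-based table gave 75.5% and 74.0% against 21.4% and 19.4%. The direction was the same in both libraries and both tables, and the size among the C2' forms was not. These exons are neighbours in the messenger RNA, joined by the 4 junctions printed above, and the counts of single junctions were not analysed here.

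Of the single forms, Grin1-201 (N1 out, C1 in, C2; 938 codons) held 49.2% and 48.4% of coding Grin1 TPM by alignment and 39.2% and 40.6% by FASTQ, the most of the 8 in both. Next was Grin1-205 (N1 out, C1 out, C2'; 885 codons) with 22.5% and 22.01%, and 30.7% and 29.9% by FASTQ. Grin1-202 (N1 out, C1 out, C2) held 9.33% and 11.3%, and Grin1-206 (N1 out, C1 in, C2') 10.0% and 10.8%. The 4 forms without N1 therefore made a major pair and a minor pair in both tables. Grin1-205 also has the longest first exon, and the part of that exon in these shares and in the pairing of C1 with C2 was not tested.

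Which carboxy terminus the N1 forms carried differed between the tables. By alignment they were mainly Grin1-203 (C1 out, C2), at 6.81% and 7.13% of coding Grin1 TPM, with Grin1-204 (C1 in, C2) at 0.26% and 0.43% and Grin1-208 (C1 in, C2') at 1.89% and 0.03%. By FASTQ Grin1-204 led with 6.86% and 5.92% and Grin1-203 held 2.10% and 1.94%, with Grin1-208 at 1.04% and 0.74%. The C2' end was thus on 21.1% and 0.38% of the N1 forms by alignment and on 10.4% and 8.66% by FASTQ. The posterior mean TPM of the alignment-based table put them level, at 2.96% and 2.68% for Grin1-203 and 3.47% and 2.68% for Grin1-204. The N1 and C1 exons are 15 exons and 2019 messenger bases apart. The posterior counts of Grin1-203 were 363 ± 251 and 308 ± 229 (posterior mean ± posterior SD), and those of Grin1-204 were 437 ± 322 and 316 ± 237. The summed N1 share held across these estimates, and the combination of N1 with C1 did not. Grin1-207 was at 0 in both libraries by either table, with a posterior mean share of 1.04% and 0.61%.

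**Figure D4:**
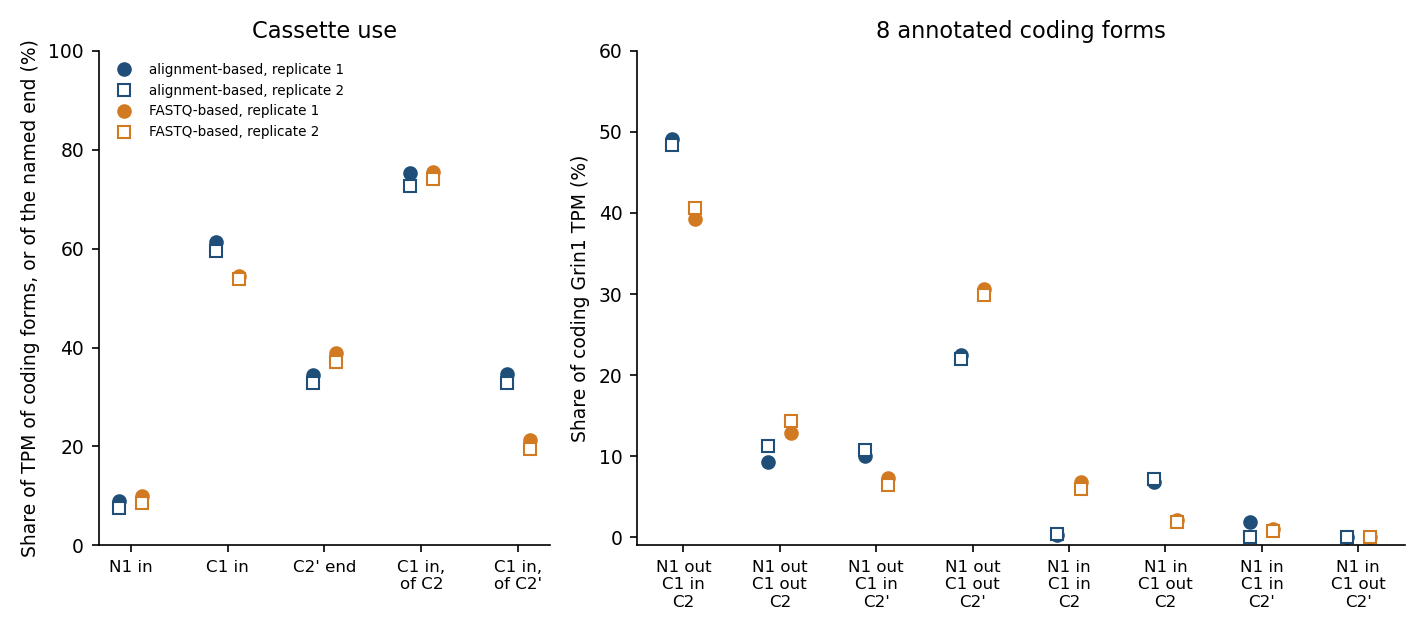
Left, share (percent) of coding Grin1 TPM on forms with N1, with C1 and with the C2' end, and of C1 among the C2 and among the C2' forms. Right, share of coding Grin1 TPM on each of the 8 annotated forms. Circles are replicate 1 and squares replicate 2, and the colours mark the table. The tables lie close for N1 (7.60% to 9.99%) and apart for C1 among the C2' forms (32.9% to 34.6% against 19.4% to 21.4%).

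The other 6 Grin1 transcripts are not protein-coding and held 10.9% and 9.46% of Grin1 TPM, and 5.79% and 5.57% of its counts. The largest of them, Grin1-214, of 3437 bases, held 3.63% and 3.70% of TPM, and each lay under 5% in both tables. An annotated antisense gene, Grin1os, overlaps Grin1 by 7706 bases and had 0 and 1 counts. Of the 12 annotated genes that overlap a member, 9 lie on the opposite strand. Whether the counting used strand is not known from the labels or file headers. How reads from bases shared by such pairs were assigned is therefore not known either. The pairs with more than 1000 counts on the partner were Kdelr1 at Grin2d (1357 and 1184) and Tmem259 at Grin3b (2660 and 2485).

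Grin3a transcripts differ by an alternative acceptor of the last exon. Grin3a-202 adds 60 bases, 20 codons, at chr4:49665566-49665625, which Grin3a-201 leaves out, and the added bases are shown because their estimated use differed between the libraries.
Grin3a insert: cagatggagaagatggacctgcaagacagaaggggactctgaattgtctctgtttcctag
The insert form held 31.2% of coding Grin3a TPM in replicate 1 and 15.5% in replicate 2, and by FASTQ 31.0% and 14.7%. Its expected counts were 1540 and 736, and its FASTQ-based counts 1645 and 746. The form without the insert went the other way, with 3364 and 3996 expected counts. The third transcript, the non-coding Grin3a-203, held 15.2% and 13.0% of Grin3a TPM.

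To ask how far the libraries differed, each gene's expected counts were set against TMM-scaled library sizes in an exact binomial test (two-sided), with Benjamini-Hochberg adjustment over the 12879 genes whose mean count reached 100. Of the 7 subunit genes 6 were tested and 3 passed an adjusted p of 0.05, Grin2a and Grin2b as higher and Grin2d as lower in replicate 2 by scaled counts. Over all tested genes 11.8% passed, 6.28% as higher and 5.5% as lower, and 17.5% of those with a mean count of at least 1000 passed. Grin3b was too low to be tested. The same 3 passed by the FASTQ-based counts, where 11.9% of all genes did. With 1 library a side, the test covers counting error only and not the spread between animals, and whether 3 of 6 differs from these shares was not tested.

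The differences were small. Grin2a was higher in replicate 2 by a log2 ratio of 0.13 (exact 95% interval 0.10 to 0.17, adjusted p = 1.55e-14, exact binomial test). Grin2b was higher by 0.03 (0.01 to 0.05, adjusted p = 0.0329, exact binomial test), a call that was lost when libraries were scaled to their total count, where the ratio was 0.02. Its direction turned with the measure. By TPM of the whole gene, Grin2b was lower in replicate 2, at 168 and 163 by alignment and 216 and 190.1 by FASTQ. Over full coding transcripts alone, Grin2b stood at 106.29 and 107.45 TPM by alignment and at 153.0 and 154.7 by FASTQ. Grin2a was higher in replicate 2 by scaled counts of both tables and by alignment-based TPM. By FASTQ-based TPM of the whole gene Grin2a was level, at 111.2 and 111.0. Over its full coding transcripts the FASTQ-based TPM was 83.1 and 93.5. Grin2d was lower by a log2 ratio of -0.17 (-0.28 to -0.06, adjusted p = 0.0187, exact binomial test). No subunit gene reached a 2-fold difference, which 0.303% of tested genes did. Grin1 (0.02, interval -0.02 to 0.05), Grin3a (0.04, -0.01 to 0.10) and Grin2c (0.13, 0.01 to 0.24, adjusted p = 0.152, exact binomial test) did not pass.

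Other genes also moved between these libraries. Over all genes tested, 11.8% passed, and 17.5% of those with a mean count of at least 1000. Whether any marker list differed from these shares was not tested. Of 5 tested myelinating oligodendrocyte markers 5 were higher in replicate 2, with summed levels of 196 and 335 TPM over 8 genes, and Mobp at 7.60 and 21.2. The choroid plexus markers summed to 15.3 and 358 TPM over 8 genes, mostly Ttr, at 8.02 and 340.1 TPM, with 2 of 4 tested higher, Ttr and Sostdc1 (2.08 and 4.66 TPM). The choroid plexus genes under the count minimum also had more counts in replicate 2, and the other tested ones did not pass. Of 8 tested glutamatergic markers 4 were higher and 0 lower (sums 2199.7 and 2382 TPM), and of 9 tested GABAergic markers 0 were higher and 2 lower (509 and 491 TPM). The part of these cell types in the Grin2a and Grin2d differences was not tested, and the sex-linked genes divide the same libraries.

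Of the 39 subunit transcripts 25 reached a mean count of 100 and 13 passed the same test on transcript counts, against 31.9% of the 22120 transcripts tested. By FASTQ 11 of 23 passed, against 32.3%. A group of 7 passed by both, all 7 in the same direction. Among them was the Grin3a insert form, lower in replicate 2 by a log2 ratio of -0.94 (adjusted p = 2.49e-49, exact binomial test) and by -1.02 by FASTQ. Grin3a-201 was higher by 0.37 in both tables. The test does not include the error of dividing reads between transcripts. The posterior counts of the insert form, which carry that error within the alignment model, were 1516 ± 243 and 764 ± 185 (posterior mean ± posterior SD). The ranges of 1 SD around each did not overlap, and those of 2 SD did. The other 6 calls were found by alignment only. The one with the widest ratio was the N1 form Grin1-208, with 218 and 3.09 expected counts (log2 ratio -5.80, adjusted p = 2.65e-55, exact binomial test). Its FASTQ-based counts were 124 and 83.1 and did not pass, and its posterior counts were 216 ± 185 and 206 ± 156. Grin2a-201 (log2 ratio -1.97), Grin2a-203 (-0.69), Grin2b-204 (1.47) and Grin2b-206 (-2.41) were under the count minimum by FASTQ. Grin2d-203 (-0.57) was tested by FASTQ and did not pass.

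**Figure D5:**
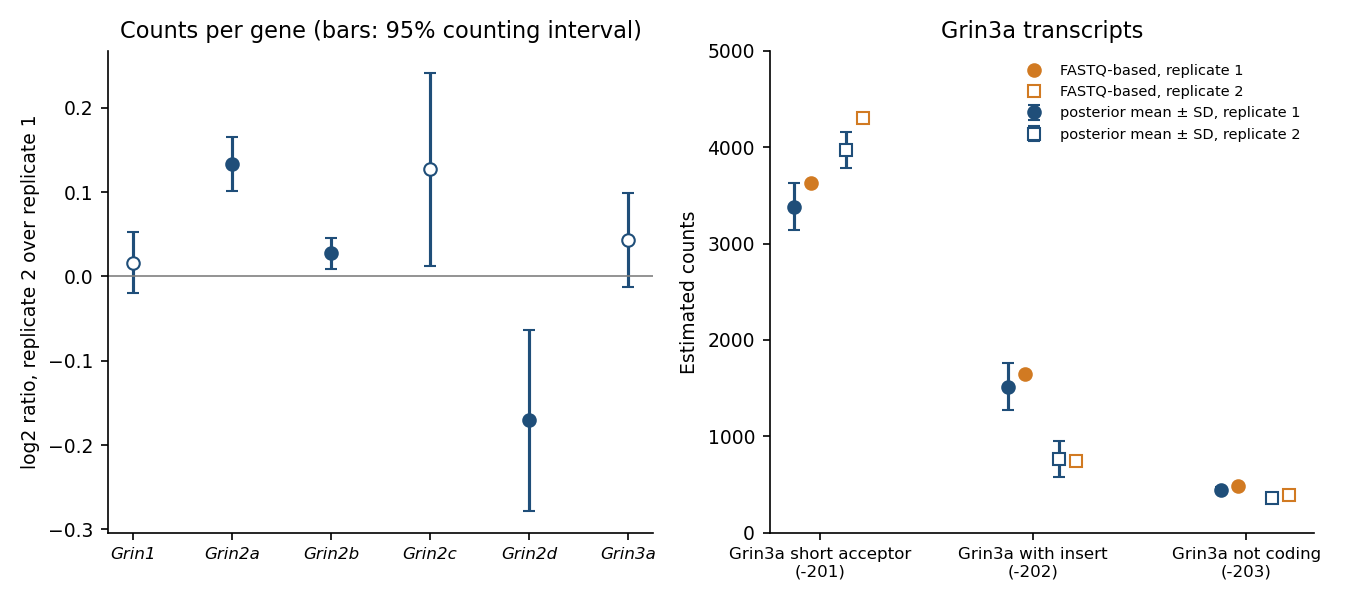
Left, log2 ratio of counts in replicate 2 over replicate 1 for the 6 tested subunit genes, with exact 95% counting intervals and filled symbols for an adjusted p under 0.05. Right, counts of 3 Grin3a transcripts, as posterior mean ± posterior SD and by FASTQ, in replicate 1 (circles) and replicate 2 (squares). Gene ratios lie between -0.17 and 0.13, and the insert form falls from 1516 to 764 posterior counts.

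Genes that work with NMDA receptors were followed as 7 lists of 108 genes, all found in the table, of which 104 were tested. Of these, 36 passed between the libraries, against the 11.8% over all tested genes and the 17.5% at higher counts. None of the 36 reached a 2-fold difference. The other ionotropic glutamate receptor genes were detected in 9 of 9, with 1 higher and 2 lower. Gria2, which makes AMPA receptors impermeable to calcium, stood at 238.7 and 239.8 TPM, Gria1 at 219 and 228 and the kainate receptor gene Grik5 at 106 and 105. Grik1 was the lowest at 13.3 and 11.6 TPM. Grin1 and Grin2b were thus below Gria1 and Gria2 and above Grik5 in both libraries by alignment.

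Of 16 scaffold and anchor genes, all detected, 10 were higher in replicate 2 and 1 lower, with a median log2 ratio of 0.07 beside 0.00 over all genes tested. Ywhah, a 14-3-3 adaptor, led at 569.7 and 605.7 TPM. Dlg4, which encodes the PSD-95 scaffold that binds GluN2 tails, stood at 322 and 334 TPM and the scaffold gene Shank1 at 214 and 219. Actn2, an actin cross-linker that binds GluN1, was the lowest at 10.2 and 10.3 TPM. Of 21 signalling genes, all detected, 6 were higher and 3 lower (median 0.04). Calm2 and Calm3, which encode calmodulin, a calcium sensor that binds the C1 region of GluN1, led with 1004.7 and 1010.1 and with 937 and 963 TPM. Nos1, the neuronal nitric oxide synthase, was the lowest at 13.7 and 14.8 TPM.

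Co-agonist genes had 11 of 13 members detected. Of 9 tested, 1 was higher and 0 lower (median 0.03). The serine synthesis genes Psat1 and Phgdh stood at 52.4 and 46.6 and at 35.1 and 40.5 TPM, and Srr, the serine racemase that makes D-serine, at 46.5 and 49.5. The glycine transporter gene Slc6a5 was the lowest at 0.07 and 0.02 TPM. Transport and endocytosis genes were detected in 14 of 14, with 5 higher and 3 lower (median 0.02). The endocytic adaptor gene Ap2m1 stood at 422 and 404 TPM, Nsf, an ATPase of membrane fusion, at 313 and 343 and the motor gene Kif1b at 180.01 and 173. Kif17, a motor known to carry GluN2B, was the lowest at 5.61 and 4.87 TPM.

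Splicing regulators were detected in 23 of 23, with 3 higher and 1 lower (median 0.03). The RNA-binding protein genes Celf2, Hnrnpa1 and Celf4 led with 232 and 239.8, 179 and 188, and 173 and 182 TPM, and Khdrbs2 was the lowest at 6.04 and 6.13. Transcription and chromatin genes were detected in 12 of 12, and 0 of 12 passed by alignment with the exact binomial test, against 1 by FASTQ. At an unadjusted p under 0.05 there were 2. Mef2a, Neurod2 and Mef2c stood at 61.8 and 58.8, 51.1 and 54.1, and 54.1 and 49.3 TPM. Npas4, an activity-induced transcription factor gene, was the lowest at 2.14 and 2.38 TPM. Whether any list differed from other genes was not tested.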

How the data were processed

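Total RNA-seq of 2 libraries of 1 group was analysed. The expected counts and TPM of genes and transcripts were derived by the authors from transcriptome alignments to mm10 with GENCODE M21, and a second set of estimated counts and TPM from the FASTQ files, per the text deposited with the files. The TPM was scaled by the authors over all rows, spike-in rows included. Posterior means and SDs were used as deposited, per the file headers. For the aligner, quantifier and strand setting, names and versions were not given in the sources used here. Of the gene table, 97 spike-in rows and 26248 rows named only by a number were left out of tests (the latter 2.81e-05% and 2.00e-05% of counts). FASTQ-based transcripts were summed per gene.

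Levels, shares and ratios are described per library with mean ± SD over n = 2. Labels do not say whether the libraries come from separate animals beyond their running numbers. Xist (25 and 30841 counts) and Ddx3y (2164 and 0) differ between them, so they are not repeats of the same RNA. SDs measure the spread between these libraries, in which technical and animal differences cannot be told apart. The p-values cover counting error only. Counts were rounded and compared between the libraries with the exact binomial test of scipy 1.17.1 at TMM sizes (edgeR 4.0.16 on R 4.3.3), for genes or transcripts with a mean count of at least 100, and called at an adjusted p under 0.05. DESeq2 1.42.0 size factors and total counts were alternatives, beside other minimums, the FASTQ-based table and single libraries. The test was also run on counts simulated with counting error only. That run does not cover spread between animals or the division of reads between transcripts. Depth was 32035705 and 29747193 expected counts, and intervals are 95% exact and cover counting error only. Cassettes and sequences were read from the M21 annotation and transcripts by Python 3.11.15 scripts.

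The subunit family was picked as a subject, and the gene lists were written, with earlier results of these data known, although membership by symbol uses no value. All 7 subunit genes are named, each transcript with a mean share of at least 10% of its gene by either table, and, from each list of associated genes, the 3 members of highest mean TPM, the lowest, and any called with a 2-fold difference; 1 gene that this rule names is not reported here. From the marker lists only sums, counts and called genes with a 2-fold difference are named. Further transcripts are named to complete the Grin1 forms, as the largest non-coding one, or for a call between the libraries.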

Additional observations from a re-analysis of the deposited data

How the results depend on the processing

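Most values depended little on single libraries and more on the deposited table and on which transcripts were summed; the causes were not tested. The sum over the 7 genes (461.7 TPM) was 632 by FASTQ, 1000.1 when rescaled over nuclear protein-coding genes and 365 over full coding transcripts, and 460.6 to 462.8 with either library left out. The Grin2a share of GluN2 (28.5%) was 31.3% by FASTQ, 24.1% in counts, 24.2% over protein-coding transcripts, 31.3% over full coding transcripts and 31.5% over those by FASTQ, and 27.7% to 29.3% with a library left out. The log2 ratio of GluN2 to Grin1 (0.79) was 0.67, 2.42, 0.85, 0.47 and 0.50 under the same changes, and 0.80 with a pseudocount of 1 TPM. By FASTQ the Grin1 shares with N1, C1 and C2' were 9.29%, 54.1% and 38.1%, and the C2' share was 31.6% in counts. With a library left out these shares ran from 7.60% to 8.96%, 59.6% to 61.3% and 32.8% to 34.4%. Directions reversed for 2 pairs. The log2 ratio of Grin2b to Grin1 (0.09) was -0.14 by FASTQ, -0.39 over full coding transcripts and -0.37 over those by FASTQ. The log2 ratio of Grin2d to Grin2c (0.02) was -0.078 and -0.093 over full coding transcripts by alignment and FASTQ, and -0.12 or 0.17 with a library left out. Genes called between libraries fell from 1517 to 39 when a 2-fold difference was required, and transcripts called rose from 7053 to 13998 when the mean count minimum was lowered to 10. The full coding and posterior settings were chosen after seeing the data. No paired analysis was possible because the samples form 1 group. Depth limits Grin3b, whose 4 and 7 counts allow no statement on form or difference. The combination of N1 with C1, exons 2019 messenger bases apart, is a model estimate.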

Other observations

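Glial and vascular marker genes, other than those given above, were detected in both libraries. The 8 astrocyte markers summed to 1479 and 1543 TPM, with 3 of 8 tested genes higher and 2 lower in replicate 2. The 6 oligodendrocyte precursor markers summed to 202 and 205 TPM, with 1 higher and 2 lower. The 5 microglia markers summed to 108 and 123 TPM, with 3 higher and 0 lower, and the 4 endothelial markers to 69.3 and 69.02 TPM, with 1 higher. The calls are from the same exact binomial test, in which 11.8% of all tested genes passed.

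Among the hippocampal neuron markers, the CA field list summed to 347 and 367 TPM with 2 of 8 higher, and the dentate granule cell list to 106 and 111 TPM with 2 of 5 higher. The 6 thalamus markers summed to 59.99 and 58.3 TPM, with 1 of 5 tested lower and 0 higher. The 6 cerebellar markers summed to 5.31 and 6.53 TPM, with 0 of 1 tested called, and the 5 cholinergic and motor neuron markers to 0.85 and 1.10 TPM, with 0 tested. Grin2c is best known from cerebellum and Grin3b from motor neurons. The part of such cells in the levels of Grin2c (12.8 and 14.04 TPM) and Grin3b (0.06 and 0.17 TPM) was not tested.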
